A study of Mus musculus with 6 samples.

Results

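Cholesterol synthesis was described here through 7 genes, Hmgcs1, Idi1, Fdft1, Sqle, Lss, Cyp51 and Dhcr7. They were chosen by name, each matched 1 row of the 38087 rows of the deposited gene table, and all 7 passed the filter on low counts. Brain RNA was sequenced from 3 wild-type (WT) and 3 Sgo1-/+ mice, 1 library per mouse, all 24 months old and labelled as strain C57BL6 (a C57BL/6-based line in the study methods). The tissue was the cerebrum with cortex and hippocampus, dissected free of olfactory bulb, cerebellum and medulla. Sgo1-/+ mice carry 1 working copy of Shugoshin-1, which protects cohesin on sister chromatids, in every cell of the body, and no other allele or treatment was named for either group. WT replicate 1 and Sgo1-/+ replicate 2 were male and the other 4 mice were female. Run 258 held all WT libraries and run 259 all Sgo1-/+ libraries, and the effects of run and genotype cannot be told apart. The question asked of the genes was whether the aged Sgo1-/+ cerebrum differed from WT in the transcripts of the enzymes that make cholesterol.

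The enzymes act in series. Acetyl-CoA units are joined to mevalonate, mevalonate is turned into isoprene units, these are coupled to squalene, and squalene is closed to the first sterol, lanosterol, which is trimmed to cholesterol. The genes share a control: when membranes run low in sterol, SCAP carries the factor SREBP-2 (gene Srebf2) from the endoplasmic reticulum to be cut, and the released part enters the nucleus and binds sterol regulatory elements, while INSIG proteins hold SCAP back when sterol is plentiful. The blood-brain barrier keeps plasma lipoproteins out, so the brain makes its own cholesterol, most of it for myelin and, in the adult, much of it in astrocytes.

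The stretch upstream of 3 of the genes is shown to let the sterol regulatory element be seen in its place. RefSeq promoters (GRCm38.p6, 250 bases before to 50 bases after a start site) were held for 5 of the 7 genes, Hmgcs1, Idi1, Lss, Cyp51 and Dhcr7. Capitals mark the letters TCACNCCAC (the element bound by SREBP), CCAAT (the NF-Y box) and GGGCGG (the Sp1 box) or their reverse complements. Each stretch runs 5′ to 3′ along the gene's strand and ends before the gene as annotated, so that matches nearer to a start site are counted but not shown.
Hmgcs1, chr13:119690101-119690350, plus strand: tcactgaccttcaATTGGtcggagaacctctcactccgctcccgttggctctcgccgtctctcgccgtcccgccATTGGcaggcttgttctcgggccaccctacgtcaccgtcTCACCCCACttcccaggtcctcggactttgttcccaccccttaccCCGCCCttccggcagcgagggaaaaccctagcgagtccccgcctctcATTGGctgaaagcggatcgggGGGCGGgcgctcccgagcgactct
Lss, chr10:76531355-76531587, plus strand: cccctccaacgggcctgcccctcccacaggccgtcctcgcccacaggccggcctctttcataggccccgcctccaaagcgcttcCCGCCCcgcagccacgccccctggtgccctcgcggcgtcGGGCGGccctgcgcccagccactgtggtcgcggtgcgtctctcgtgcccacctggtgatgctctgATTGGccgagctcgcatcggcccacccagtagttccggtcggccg
Cyp51, chr5:4104747-4104947, minus strand: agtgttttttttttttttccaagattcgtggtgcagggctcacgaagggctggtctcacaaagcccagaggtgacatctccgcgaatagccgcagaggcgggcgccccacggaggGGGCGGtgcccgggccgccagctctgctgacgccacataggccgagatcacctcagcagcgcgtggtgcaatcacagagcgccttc
The SREBP letters were found in Hmgcs1 alone of the 5 genes, at position −137 from the start site, and in 0 of the 10 other pathway enzymes with a promoter on file. Of all 32851 mouse promoters, 408 (1.24%) held them. Counted per promoter, since Dhcr7 has 3 start sites on file, the NF-Y letters were in 5 of the 7 promoters of these genes and in 37.4% of all promoters, and the Sp1 letters in 6 of the 7 and in 35.7%. In the 11 promoters of the other pathway enzymes each was found in 9. A match of letters is a description of the window, and a promoter without it may be bound all the same.

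WT replicate 1 held transcripts of the cerebellum and brain stem, regions the dissection left out, and fold changes that rest on it are given with and without it. A normalized count is the library's estimated count scaled by its TMM-adjusted library size.

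No gene of the 7 differed between Sgo1-/+ and WT past the threshold. At an adjusted p under 0.05 (edgeR's quasi-likelihood test, Benjamini-Hochberg adjustment over 16337 genes) the comparison called 0 of the 7 and 0 genes in all (0%), and at an unadjusted p under 0.05 it called 0 of the 7 beside 333 of all genes (2.04%), of which 201 were lower (1.23%) and 132 higher (0.808%) in Sgo1-/+. DESeq2's Wald test called 3 genes and edgeR's likelihood ratio test 2, none of them a member. The adjusted p was 0.9998 for each member. By log2 fold change (Sgo1-/+ over WT) 2 members lay above 0 and 5 below, with a median of −0.17, while 50.2% of all tested genes lay below 0 and their median was −0.000713. Without WT replicate 1 the split was 4 above and 3 below, and the median was 0.01.

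Hmgcs1 (chr13:119690462-119708086, mm10) makes HMG-CoA, from which mevalonate is formed. Normalized counts, given here and for each gene in the order of the replicate numbers, were 3411, 2486 and 4161 for WT, and 2637, 4111 and 3672 for Sgo1-/+. Both groups spanned nearly the same range, with WT replicate 2 and Sgo1-/+ replicate 1 low. WT averaged 3353 ± 839 (SD, n = 3) against 3473 ± 757 (SD, n = 3) for Sgo1-/+, and the log2 fold change was 0.05 with a standard error of 0.24 (edgeR's quasi-likelihood test, 95% interval −0.51 to 0.61, exact permutation p = 0.8). The interval therefore held folds from 0.701 to 1.53.

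Idi1 (chr13:8885501-8892451) interconverts the 2 isoprene units. The WT libraries held 823.5, 448.0 and 587.9 normalized counts and the Sgo1-/+ libraries 424.0, 655.5 and 524.3. WT replicate 1 stood above the other 5 libraries, and the groups overlapped. The log2 fold change was −0.21 (standard error 0.26, 95% interval −0.82 to 0.39, exact permutation p = 0.6), and 0.05 without WT replicate 1. The deposited counting may share reads between Idi1 and its processed pseudogene Gm13502, which is identical to it over 684 bases. Gm13502 was at 110.1, 64.75 and 95.52 in WT and 45.32, 107.6 and 79.8 in Sgo1-/+, so the same libraries were low in both. Idi2, the close relative of Idi1, held at most 3.97 normalized counts in any library.

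Fdft1 (chr14:63145153-63177793, minus strand) couples farnesyl diphosphate into squalene, the first step that leads to sterols only. Normalized counts reached 1220, 1091 and 1348 in WT, and 1287, 1267 and 1083 in Sgo1-/+. Over all 6 libraries this was the steadiest of the members, with the highest library 1.25 times the lowest. The log2 fold change was −0.01 (standard error 0.13, 95% interval −0.30 to 0.29, exact permutation p = 0.9), which leaves folds from 0.81 to 1.22. Of the exon bases of Fdft1, 774 (18.31%) lie opposite the abundant protease gene Ctsb, whose normalized counts were 7768 to 9574. The library kit does not mark strand, so reads of the 2 genes cannot be told apart there.

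Sqle (chr15:59315077-59331192) oxidizes squalene and is a step at which the pathway is held in check. WT mice had 837.3, 679.9 and 735.3 normalized counts and Sgo1-/+ mice 679.2, 949.8 and 748.6. The male library of each group was the highest of its group, and the 4 female libraries lay within 679.2 to 748.6. The log2 fold change between genotypes was 0.08 (standard error 0.16, 95% interval −0.29 to 0.45, exact permutation p = 0.7), and 0.16 without WT replicate 1.

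Lss (chr10:76531588-76557138) closes the ring system to lanosterol. In WT it was measured at 565.7, 630.3 and 578.8 normalized counts, and in Sgo1-/+ at 550.5, 531.2 and 454.6. It was the single member whose groups did not overlap, each Sgo1-/+ library being below each WT library (550.5 against 565.7 at the nearest pair). WT averaged 592 ± 34.1 (SD, n = 3) and Sgo1-/+ 512 ± 50.7 (SD, n = 3), and the log2 fold change was −0.21 with a standard error of 0.12 (edgeR's quasi-likelihood test, 95% interval −0.49 to 0.07, unadjusted p = 0.119, adjusted p = 0.9998). The exact two-sided permutation p was 0.1, the smallest that 3 against 3 libraries can give. Groups that did not overlap were found for 6.84% of all tested genes, with Sgo1-/+ lower for 583 (3.57%) and higher for 535 (3.27%), the latter for none of the 7 genes. The fold change stayed between −0.26 and −0.13 whichever library was left out, and it was −0.24 without WT replicate 1.

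Cyp51 (chr5:4081145-4104746, minus strand) removes a methyl group from lanosterol. The libraries held 1284, 662.7 and 876.8 normalized counts in WT, against 560.6, 976.0 and 792.0 in Sgo1-/+. It varied most of the members, with the highest library 2.29 times the lowest and coefficients of variation of 33.5% in WT and 26.8% in Sgo1-/+. The log2 fold change was −0.28 (standard error 0.29, 95% interval −0.96 to 0.41, exact permutation p = 0.5), and 0.01 without WT replicate 1. The interval reached from 0.514-fold to 1.32-fold.

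Dhcr7 (chr7:143823145-143848410) reduces a ring double bond in a last step towards cholesterol. WT replicates had 470.9, 282.6 and 416.3 normalized counts and Sgo1-/+ replicates 277.3, 391.0 and 373.4. The groups overlapped, with WT replicate 2 and Sgo1-/+ replicate 1 far below the other 4 libraries. The log2 fold change was −0.17 (standard error 0.23, 95% interval −0.70 to 0.37, exact permutation p = 0.5), and −0.01 without WT replicate 1.

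**Figure D1:**
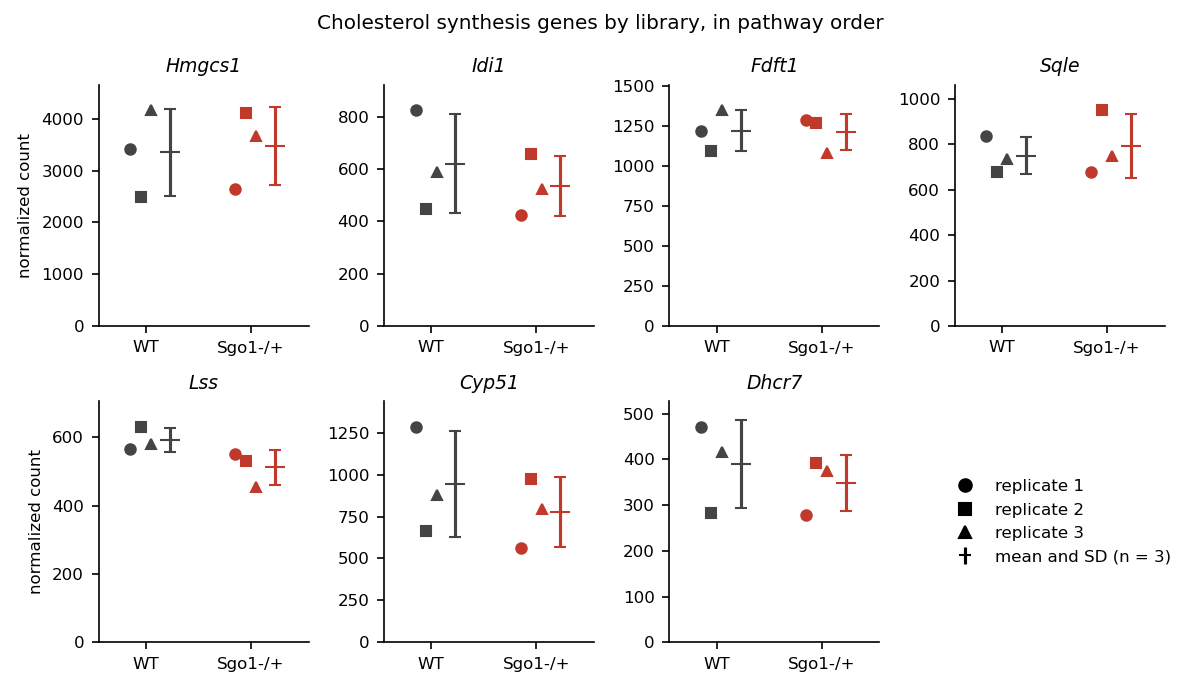
Normalized counts (y axis, from 0) of the 7 genes in pathway order, with 1 point per library and the mean and SD of 3 libraries beside them. The shape gives the replicate number, which was not taken to pair the groups. The groups overlap for 6 genes, and for Lss the 3 Sgo1-/+ points lie under the 3 WT points.

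The other enzymes of the pathway were not called either. Of the 13 other synthesis enzymes, all tested, 0 were called, 0 had an unadjusted p under 0.05, 3 lay above 0 and 10 below, with a median log2 fold change of −0.07, or 0.01 without WT replicate 1 (7 above, 6 below). Pmvk, a mevalonate pathway kinase, had the lowest value, −0.21 (standard error 0.14), and −0.12 without WT replicate 1.

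**Figure D2:**
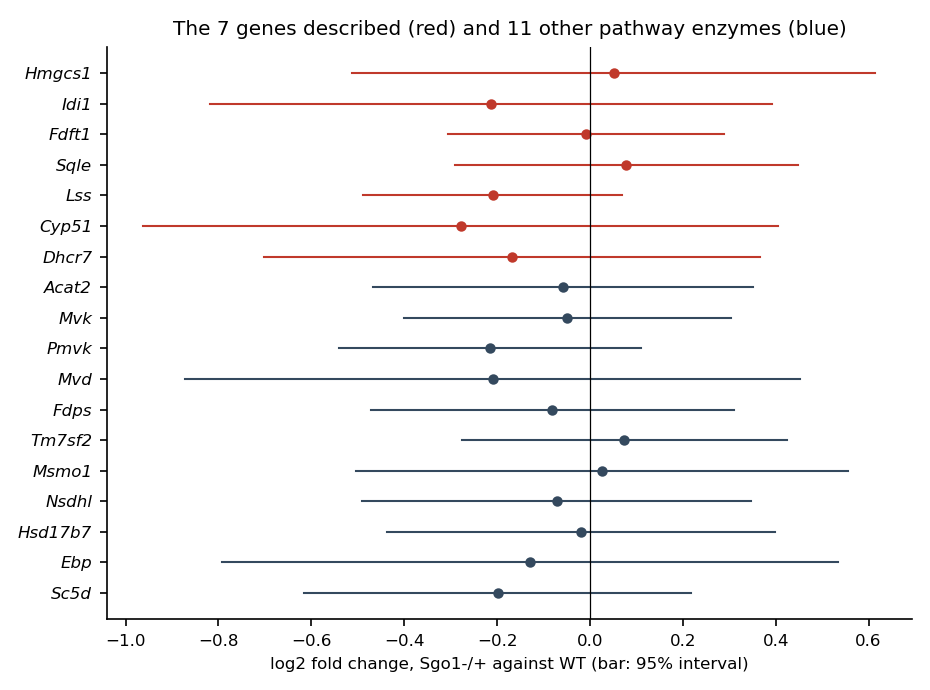
Log2 fold change of Sgo1-/+ against WT (x axis, edgeR) with its 95% interval for the 7 genes described (red) and 11 of the 13 other enzymes of the pathway (blue). Each of the 18 intervals crosses 0, and they run from −0.96 to 0.61.

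Among the 7 genes of the SREBP machinery, 0 were called, 3 lay above 0 and 4 below (2 and 5 without WT replicate 1). Srebf2 was at 0.21 (standard error 0.20), the highest of this list, and Insig1, itself a target of SREBP that brakes the system, at −0.22 (standard error 0.16), the lowest. Without WT replicate 1 they were at 0.08 and −0.04, and Srebf2 was at 0.46 without WT replicate 3. Neither difference exceeded the spread between libraries. The 6 genes of uptake and transport had 0 called and a median of −0.05. Lrp1, a receptor for apolipoprotein E, had the highest value, 0.01.

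Efflux and turnover genes, driven in part by the sterol-sensing LXR factors, also had 0 of 9 called and a median of −0.04, or 0.10 without WT replicate 1. Cyp46a1, the neuronal hydroxylase that turns cholesterol into a form that leaves the brain, had normalized counts of 600.2, 2080 and 2441 in WT and 2042, 2491 and 2185 in Sgo1-/+. Its fold change rested on WT replicate 1, being 0.39 (standard error 0.46) with that library and −0.01 without it. The extremes of the list were low genes, Nr1h3 (LXR alpha) at −0.43 and Ch25h, an oxysterol-making hydroxylase, at 0.90, with standard errors of 0.53 and 1.03, and without WT replicate 1 Nr1h3 was at 0.38. Abcg1, a sterol exporter, was the single gene of the list whose groups did not overlap, higher in Sgo1-/+ by 0.15 (standard error 0.10, unadjusted p = 0.158, adjusted p = 0.9998, edgeR), a gene singled out after its values were seen. Of all tested genes, 3.27% had groups that did not overlap with Sgo1-/+ higher. Of the 6 fatty acid synthesis genes 0 were called, with Scd1 lowest (−0.32, or 0.04 without WT replicate 1) and Fasn highest (−0.02). Of the 4 genes of the isoprenoid branch, which draws on the same precursors, 0 were called, with Pdss1 lowest (−0.19, or 0.01 without WT replicate 1) and Fntb highest (−0.03). Acat1, a thiolase of the mitochondrion that acts outside the pathway, was at −0.03, or 0.03 without WT replicate 1.

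For each of the 7 genes, libraries of at least 1 group lay further apart than the group means did. WT replicate 2 was the lowest WT library for 6 of the 7 genes, Lss being the exception, and Sgo1-/+ replicate 1 was the lowest Sgo1-/+ library for 5 of the 7, Fdft1 and Lss being the exceptions. Of all tested genes 27.6% were lowest of their group in WT replicate 2, 32.1% in Sgo1-/+ replicate 1 and 12% in both, against 5 of the 7 members in both. The 2 libraries were picked after the values of the 7 genes were seen, so this contrast is a description and no test. The 7 counts summed to 8612, 6280 and 8704 in WT and 6416, 8882 and 7647 in Sgo1-/+. The median of the 7 log2 ratios to each gene's median of 6 libraries was lowest in these libraries, at −0.31 for WT replicate 2 and −0.39 for Sgo1-/+ replicate 1, and ran from −0.08 to 0.22 elsewhere. The 13 other enzymes followed, with 9 lowest in WT replicate 2 and 11 lowest in Sgo1-/+ replicate 1, 8 of them in both. The order was not particular to these enzymes. Of the 6 fatty acid synthesis genes 5 were lowest of their group in each of these 2 libraries. Of the 9 oligodendrocyte genes 6 were lowest in WT replicate 2 and 5 in Sgo1-/+ replicate 1. For the 7 genes of the SREBP machinery it was 3 in each.

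**Figure D3:**
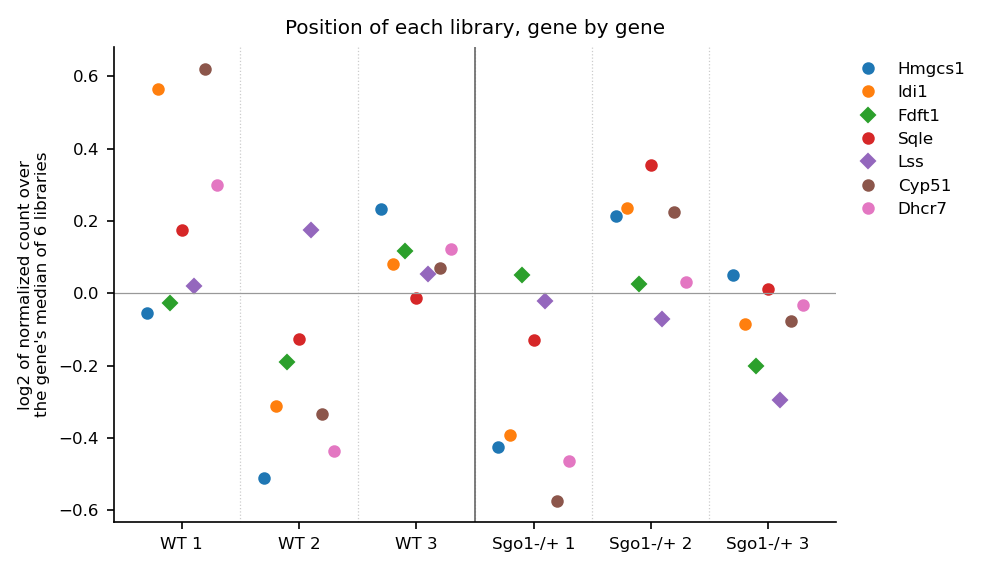
Log2 ratio of the normalized count to the gene's median of the 6 libraries (y axis) for each library (x axis) and gene (colour; diamonds are Fdft1 and Lss). WT replicate 2 and Sgo1-/+ replicate 1 hold the low values of 5 genes, from −0.13 to −0.57, while Lss is highest in WT replicate 2.

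The within-group spread was largest for Cyp51 and Idi1. WT replicate 1 was the highest of the 6 libraries for both genes, and the spread was not computed without it. On the log2 scale the SD within groups was 0.44 for Cyp51, larger than for 90.4% of 2469 genes of like level, 0.38 for Idi1 (86.3%), 0.35 for Hmgcs1 (80.5%) and 0.33 for Dhcr7 (80.1%). It was 0.21 for Sqle (62.5%), 0.15 for Fdft1 (44.2%) and 0.12 for Lss (26.2%). The 5 genes with the widest spread were those lowest of their group in both WT replicate 2 and Sgo1-/+ replicate 1.

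The males were examined next, since the male of each group was its highest library for several of the genes. This was done after the values were seen, with genotype kept in the fit (edgeR's quasi-likelihood test, 2 males and 4 females). The values of the same genes prompted the comparison, so their p-values are a description and no test. Idi1 was higher in males by 0.57 on the log2 scale (standard error 0.16, edgeR, unadjusted p = 0.0133, adjusted p = 0.83). For Cyp51 the difference was 0.64 (standard error 0.19, edgeR, unadjusted p = 0.0152, adjusted p = 0.83), and for Sqle it was 0.33 (standard error 0.12, edgeR, unadjusted p = 0.0295, adjusted p = 0.83). None passed the adjustment, which 1 of all tested genes did (0.00612%), while 676 genes (4.14%) had an unadjusted p under 0.05. The low-count filter went by genotype group, so genes above its limit in the 2 males alone were not among those tested. For these 3 of the 7 genes both males lay above all 4 females, as for 6.54% of all genes. The values were 0.35 for Dhcr7, 0.21 for Hmgcs1, 0.05 for Fdft1 and −0.01 for Lss, so that 6 of the 7 lay above 0 beside 47.6% of all genes. The 13 other enzymes all lay above 0, with a median of 0.25, and the median of all genes was −0.0159.

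The WT male is WT replicate 1, which also carried transcripts of the cerebellum and brain stem, so in WT sex and dissection cannot be told apart. Without it both remaining WT mice were female, and the difference set Sgo1-/+ replicate 2 against the 2 Sgo1-/+ females alone. It was 0.47 for Idi1, 0.53 for Cyp51 and 0.41 for Sqle, given as values with no test, since 1 male was left and Sgo1-/+ replicate 1, low for these genes, was 1 of the 2 females. All 7 genes then lay above 0, with a median of 0.38. Of the 13 other enzymes 10 then lay above 0, with a median of 0.24.

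Markers of other tissue moved with the libraries and are given beside this. The 5 neuronal genes summed to 50650 normalized counts in WT replicate 1 and to 72830 to 92280 in the other libraries. In WT replicate 1, 4 of the 5 neuronal genes were the lowest of WT. The 5 astrocyte genes summed to 31960 to 40760 normalized counts. The astrocyte genes did not move together. Their sum was lowest in WT replicate 1, where 4 of the 5 were the highest of WT and 1 the lowest. WT replicate 1 stood apart, with a mean correlation to the other libraries of 0.935 against 0.967 to 0.97. Its 5 cerebellar markers summed to 20100 against 1625 to 2391 in the others, and its 4 brain stem markers to 3262 against 1.01 to 43.6. The 9 oligodendrocyte genes summed to 144700, 55180 and 60090 in WT and 79850, 77660 and 136800 in Sgo1-/+. The 3 blood genes, 2 globins and Alas2, were each highest in WT replicate 2 within WT and in Sgo1-/+ replicate 1 within Sgo1-/+, the libraries with the lowest cholesterol synthesis counts, and summed to 2728, 4376 and 3589 in WT and 11180, 1698 and 937.5 in Sgo1-/+. The part of these tissues in the values of the 7 genes was not tested, and in bulk tissue fewer cells of a type and less RNA per cell cannot be told apart.

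More lists were checked, for the olfactory bulb, which the dissection left out, and for the choroid plexus and other cell types. The 3 olfactory bulb genes summed to 118.2, 668 and 541.4 in WT and 289, 34.94 and 43.12 in Sgo1-/+. Like the blood genes, each of the 3 was highest in WT replicate 2 within WT and in Sgo1-/+ replicate 1 within Sgo1-/+. The 3 choroid plexus genes summed to 20550, 6995 and 406.3 in WT and 914.3, 146.9 and 22850 in Sgo1-/+. The 4 microglia genes summed to 1674 to 2380 in WT and 2646 to 2740 in Sgo1-/+, where Csf1r had a log2 fold change of 0.38 (standard error 0.15, unadjusted p = 0.0385, adjusted p = 0.9998, edgeR), and 0.24 without WT replicate 1. The 3 endothelial genes summed to 1654 to 2187 and the 3 genes of oligodendrocyte precursors to 813.7 to 1462 over the 6 libraries. Sgo1, the targeted gene, had at most 6.67 normalized counts in any library (0, 6.67 and 0 in WT, 3.97, 2.03 and 0 in Sgo1-/+), too few to check the genotype labels. Total estimated counts were 11123917 to 12505561 per library.

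Levels of different genes were compared only per kilobase of exon (all annotated exons of the gene merged). The order of the mean level was Hmgcs1 with 743, Fdft1 with 288, Cyp51 with 194.5, Idi1 with 165, Sqle with 139, Dhcr7 with 63.4 and Lss with 51.2 normalized counts per kilobase. The lowest Hmgcs1 library (541) was above the highest Fdft1 library (319), and the lowest Sqle library (122.5) was above the highest Dhcr7 library (80.95). The other neighbours in the order overlapped over the 6 libraries. With the length of the longest transcript instead the order was the same, but Sqle and Dhcr7 then overlapped and Dhcr7 and Lss did not.

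**Figure D4:**
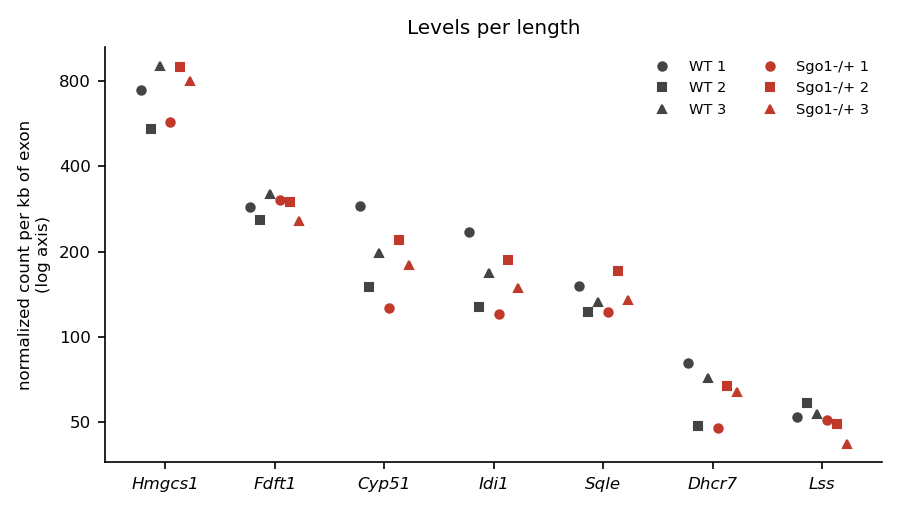
Normalized counts per kilobase of exon (y axis, log scale) for the 7 genes in the order of their mean, with 1 point per library (WT grey, Sgo1-/+ red). Hmgcs1 lies above all other genes in every library, at 541 to 906, and Dhcr7 and Lss lie lowest, at 42.1 to 80.95.

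The 7 genes were averaged to 1 pattern over the 6 libraries (each gene's log2 CPM centred and scaled), and all tested genes were ranked by Pearson's r to it. Idi1 (0.93), Cyp51 (0.91) and Dhcr7 (0.91) were closest to their own mean, followed by Sqle (0.80), Hmgcs1 (0.77) and Fdft1 (0.52), while Lss had an r of 0.03. Each of the 7 is part of the pattern, which raises its r, so these values cannot be set against those of other genes. The 5 nearest genes outside the list were Nat8 (0.99), Dhrs13 (0.99), Mmp11 (0.99), Soat1 (0.99) and Ubr4 (0.98). Of these Soat1 esterifies cholesterol for storage, and its normalized counts were 339.9, 279.9 and 317.1 in WT and 278.7, 319.9 and 287 in Sgo1-/+. Fdps (0.95), the synthase of farnesyl diphosphate, was also near. Other enzymes of the pathway were not, such as Tm7sf2 (0.41), Pmvk (0.12) and Mvk (0.05). Srebf2 (0.13) was not near either. An r of 0.9 or more was reached by 101 of 16337 genes (0.618%). These values describe all 6 libraries with WT replicate 1 included, and the libraries also differed in cerebellar, olfactory bulb and blood transcripts.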

How the data were processed

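The authors aligned paired reads (Illumina TruSeq V2, MiSeq) to mm10 in Strand NGS and deposited an expected count per Ensembl gene and library, not normalized; the submitters' processing notes name BWA and edgeR without versions. The authors also deposited log2 normalized values and their own comparison (log2 difference, signed fold score and fold ratio), which were not used. Between 46.3 and 47.6% of the counts were not whole, and all were rounded here. Sgo1-/+ was compared with WT in edgeR 4.0.16 (R 4.3.3; TMM, default low-count filter, quasi-likelihood test, 16337 genes, no covariate), with DESeq2 1.42.0 and limma 3.58.1 as alternatives. Normalized counts are counts over the effective library size times its mean over the 6 libraries. Single genes were compared by exact permutation (two-sided, 20 groupings). The fits were tested on simulated data. Lengths, overlaps and copies (BLAST 2.17.0, at least 90% identity over 150 bases) came from GENCODE M21 and promoters from RefSeq.

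The columns were matched to the mice by their group and their number in the header. The 7 genes and all lists were chosen with earlier results of these data known. Named genes are the 7, the highest and lowest fold change of each pathway list, any listed gene with an unadjusted p under 0.05, further genes chosen by name (Srebf2, Insig1 and Cyp46a1 among them), Sgo1 and the 5 nearest in pattern; marker lists are given by their sums, with the extremes left unnamed. Some genes that this rule names are not reported here. A count of 0 allows up to 3 counts, a limit for counting error only, while the 95% intervals of fold changes rest on the spread between libraries. Other alternatives were DESeq2's size factors, no filter, a minimum of 10 counts per library throughout, a block for the replicate number, a covariate for sex, and each library left out. The sex term itself was read after the values were seen.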

Additional observations from a re-analysis of the deposited data

How the results depend on the processing

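Across 14 alternatives for each of the 7 genes, 98 fits in all, 0 gave an adjusted p under 0.05 (smallest 0.769 over edgeR, DESeq2 and limma), and the sign turned in 7, each with 1 library left out. Over all genes, DESeq2's Wald test called 3, edgeR's likelihood ratio test 2, and the fits without 1 library 0 to 1, the 1 being without Sgo1-/+ replicate 2. Without 1 library, 0 to 4 of the 7 genes lay above 0 (0 without Sgo1-/+ replicate 2, 1 without WT replicate 2, 4 without WT replicate 1), and their median ran from −0.24 to 0.01. The sign turned for Hmgcs1 (−0.12 to 0.24; −0.12 without WT replicate 2 and −0.0921 without Sgo1-/+ replicate 2), Idi1 (−0.40 to 0.046; 0.046 without WT replicate 1), Fdft1 (−0.0823 to 0.0717; 0.0717 without WT replicate 3 and 0.0675 without Sgo1-/+ replicate 3), Sqle (−0.0779 to 0.18; −0.0779 without Sgo1-/+ replicate 2) and Cyp51 (−0.48 to 0.0123; 0.0123 without WT replicate 1), where the range is that over the libraries left out, and not for Dhcr7 (−0.35 to −0.0079) or Lss. Without Sgo1-/+ replicate 1, the sign turned for Ch25h (−0.61) and Fasn (0.0243). Without Sgo1-/+ replicate 2, the sign turned for Lrp1 (−0.0119). Without WT replicate 1, the sign turned for Nr1h3 (0.38), Cyp46a1 (−0.0139), Scd1 (0.0407), Pdss1 (0.0105) and Acat1 (0.0342). Without WT replicate 2, the sign turned for Lrp1 (−0.0631). Without WT replicate 3, the sign turned for Fasn (0.0247) and Fntb (0.0038). The ranges of these genes were −0.0631 to 0.0691 for Lrp1, −0.76 to 0.38 for Nr1h3, −0.61 to 1.68 for Ch25h, −0.0139 to 0.74 for Cyp46a1, −0.48 to 0.0407 for Scd1, −0.0525 to 0.0247 for Fasn, −0.33 to 0.0105 for Pdss1, −0.0785 to 0.0038 for Fntb and −0.0686 to 0.0342 for Acat1. The cause was not tested.

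The replicate numbers were not taken to pair the mice, WT replicate 1 being male and Sgo1-/+ replicate 1 female. Deviations of same-numbered libraries from their group means correlated at −0.146, 0.0141 and −0.207. These values cannot decide on pairing, since the deviations sum to 0 within each group. With the number as a block, 0 genes were called, 2 of the 7 lay above 0 and their median was −0.15. With 3 libraries per group, the 95% intervals of the 7 genes span 0.514-fold to 1.53-fold, and a gene's data do not separate the values within its interval. The order of the libraries, examined after seeing the data, gave 6 genes lowest in WT replicate 2 and 5 in Sgo1-/+ replicate 1 also under DESeq2's size factors.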
